A study of Mus musculus with 4 samples.

Results

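Lyve1-high macrophages were a set of 1326 cells among the 13578 cells kept from malignant pleural effusions of mice, or 9.77% of them. A cell was kept when its barcode held at least 1000 unique molecular identifiers (UMIs, each marking 1 captured RNA molecule) and 200 genes, with at most 10% of UMIs from mitochondrially encoded genes. A kept cell was a member when it had at least 1 UMI of Csf1r, the receptor for the macrophage growth factor CSF1, and at least 5 UMIs of Lyve1 per 10000. Its summed Alox15 and Prg4, which mark large macrophages of serous cavities, had to stay below 10 UMIs per 10000. Members made up 14.7% of the 9001 cells in which Csf1r was detected. The cells were thus chosen by their own Csf1r, Lyve1, Alox15 and Prg4 counts, and the levels of those genes are given as a description.

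Lyve1 encodes a hyaluronan receptor first known from lymphatic vessels. Macrophages that carry it lie along vessels, in connective tissue and under serous linings, and many are seeded early in life and maintained in place. They take up debris, haemoglobin and matrix, and commonly carry the folate receptor Folr2, the mannose receptor Mrc1 and the haemoglobin receptor Cd163. Large macrophages of the serous cavities depend instead on the transcription factor GATA6, and monocytes recruited from blood carry the chemokine receptor Ccr2.

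The fluid came from C57BL/6 mice bearing Lewis lung carcinoma (LLC), a transplantable mouse lung tumour line, which all groups carried. Treatments were given into the pleural cavity on day 11 and cells were collected on day 13, 48 h later. The groups were the combination of LNP-cGAMP (1 µg) with anti-PD-L1 antibody (clone 10F.9G2, 30 µg), LNP-cGAMP alone (1 µg), anti-PD-L1 alone (30 µg) and PBS. LNP-cGAMP is a nanoparticle carrying cGAMP, the cyclic dinucleotide that activates the interferon-inducing adaptor STING, and PD-L1 is a ligand that restrains T cells. Each group was 1 library made from the pooled cells of 3 mice, so no comparison has a replicate check and no test between treatments was possible. No age or sex is given in the labels. Intervals are exact 95% intervals and cover counting error only, in a pool whose mice cannot be separated.

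The libraries held between 68828158 and 88855120 UMIs. Members were deep cells, with a median of 47313 UMIs in the combination, 28266 in LNP-cGAMP, 51246 after anti-PD-L1 and 49646 in PBS. Sex-linked transcripts showed that the pools were made up of different mixtures of male and female mice. A cell is termed female-called when it had a UMI of Xist and none of Ddx3y, Eif2s3y, Kdm5d or Uty, and male-called in the reverse case. Of the called members, 315 were female-called and 33 male-called in the combination, 0 and 27 in LNP-cGAMP, 315 and 127 in anti-PD-L1, and 0 and 396 in PBS. Female-called and male-called cells come from different mice of a pool, so sex and mouse cannot be told apart, and results that turn on this are given by call. Both marks were present in 19 members of the combination, 0 of LNP-cGAMP, 20 of anti-PD-L1 and 5 of PBS. Pairs of libraries shared between 8 and 19 barcodes of kept cells, where 1.40 to 2.00 are expected by chance, and 1 barcode was a member in 2 libraries, the combination and anti-PD-L1.

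The 5 genes named as markers of these cells lie on 5 chromosomes of GRCm38, in the GENCODE vM21 annotation. Lyve1 spans chr7:110850607-110863239 and Timp2, an inhibitor of matrix metalloproteinases, spans chr11:118301069-118355740, both on the minus strand. Fcna (ficolin A, a lectin of the complement system; chr2:25624666-25628030) and Marco (a scavenger receptor for particles and bacteria; chr1:120474538-120505024) are also on the minus strand. Cd5l, a secreted protein of tissue macrophages, spans chr3:87357881-87371073 on the plus strand. RefSeq promoter windows of 250 bases before and 50 bases after the transcript start, on GRCm38.p6, matched 8 of the 11 genes asked for. Lyve1, Ccl5 and Hmox1 had no entry. The windows below, written on each gene's own strand, are those of the markers Fcna and Marco and of Saa3, on which the comparison of treatments turns. Capitals mark the motif letters found.
Fcna promoter, chr2:25627925-25628224, minus strand: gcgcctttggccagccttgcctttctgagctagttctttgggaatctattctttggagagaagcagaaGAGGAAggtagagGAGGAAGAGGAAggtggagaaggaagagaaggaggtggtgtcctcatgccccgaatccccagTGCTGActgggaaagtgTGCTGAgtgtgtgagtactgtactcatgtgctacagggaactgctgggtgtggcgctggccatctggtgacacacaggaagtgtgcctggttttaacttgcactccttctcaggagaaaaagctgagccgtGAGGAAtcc
Marco promoter, chr1:120504975-120505274, minus strand: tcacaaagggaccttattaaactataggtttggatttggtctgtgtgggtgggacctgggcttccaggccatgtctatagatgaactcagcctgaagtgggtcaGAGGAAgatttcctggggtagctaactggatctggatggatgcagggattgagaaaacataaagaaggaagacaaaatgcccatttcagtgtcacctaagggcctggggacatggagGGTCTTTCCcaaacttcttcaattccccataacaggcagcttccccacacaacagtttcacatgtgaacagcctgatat
Saa3 promoter, chr7:46715627-46715926, minus strand: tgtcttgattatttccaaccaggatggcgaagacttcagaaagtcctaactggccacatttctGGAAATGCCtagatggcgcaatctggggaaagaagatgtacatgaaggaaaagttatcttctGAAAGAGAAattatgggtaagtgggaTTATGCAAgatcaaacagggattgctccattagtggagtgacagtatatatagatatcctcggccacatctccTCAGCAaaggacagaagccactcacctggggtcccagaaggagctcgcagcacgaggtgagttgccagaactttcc
The motifs searched on both strands were GAGGAA, the core bound by PU.1, a factor of all macrophages (in 28.3% of 32851 windows), and TGCTGA, part of the site of MAF factors (19.5%). The others were TTGCNNAA for C/EBP factors (10.8%), GGNNTTTCC for NF-kB (5.82%), GAAANNGAA for interferon-regulatory factors (8.56%) and TTCNNNGAA for STAT factors (8.30%). The Fcna window held GAGGAA 4 times and TGCTGA 2 times. The Marco window held GAGGAA beginning 146 bases before the start and GGTCTTTCC, an NF-kB letter match, beginning 29 bases before it. The Saa3 window held GGAAATGCC, an NF-kB letter match on the opposite strand, beginning 187 bases before the start and GAAAGAGAA, a match for interferon-regulatory factors, at 125 bases. It also held TTATGCAA, a C/EBP letter match on the opposite strand, at 99 bases, and TCAGCA, a MAF letter match on the opposite strand, at 26 bases. A match of letters is a description and was not linked to binding here.

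The members carried several transcripts of vessel- and tissue-associated macrophages and lacked Gata6, the factor of large serous-cavity macrophages. Levels are in CPM (counts per 1e6), the UMIs of a gene relative to all UMIs summed over the cells of a set. Lyve1, which chose the cells, stood at 1100 CPM in members of the combination, 767 in LNP-cGAMP, 1042 after anti-PD-L1 and 1071 in PBS. In the other Csf1r-detected cells without the Alox15/Prg4 mark it was at 59.4, 22.6, 87.9 and 92.0 CPM in the same order of libraries. Folr2, which the choice did not use, was at 899 CPM in combination members, 1365 in LNP-cGAMP, 838 after anti-PD-L1 and 970 in PBS, against 567, 540, 365 and 470 CPM in the other cells. Mrc1 was at 465, 380, 479 and 539 CPM in members, and at 43.9, 2.88, 20.6 and 65.2 CPM in the Alox15/Prg4 cells of the same libraries. The other Csf1r-detected cells also carried Mrc1, with a median of 1.95, 1.06, 1.78 and 2.86 UMIs per 10000 over cells. In members that median was 4.51, 3.19, 4.45 and 5.23. Gata6 stayed at 1.24 CPM or less in members of all 4 libraries, against 63.3 to 105 CPM in the Alox15/Prg4 cells. Timd4, a phosphatidylserine receptor of long-lived resident macrophages, reached 1.09, 0, 2.61 and 5.66 CPM in members. The label of resident-type cells thus rests on Lyve1, which chose the cells, and on Timp2, Folr2 and Mrc1, and the defining transcripts Gata6 and Timd4 were at or near 0. Of 20 listed resident macrophage genes, 10, 11, 11 and 11 reached 50 CPM in members, and 11, 9, 11 and 11 in the other Csf1r-detected cells. By that count the list did not set members apart. It summed to 9062, 9078, 9086 and 11310 CPM in members and 5606, 5085, 4080 and 6478 CPM in the other cells, with Pf4 the most abundant.

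The other named markers differed in how far they set members apart. Timp2 was at 981 CPM in combination members, 760 in LNP-cGAMP, 945 after anti-PD-L1 and 1118 in PBS, against 370, 238, 373 and 491 CPM in the other Csf1r-detected cells. Fcna was at 295, 176, 281 and 329 CPM in members, against 77.2, 29.7, 107 and 147 CPM in the other cells. Cd5l was at 448, 691, 343 and 446 CPM in members, against 156, 120, 120 and 214 CPM in the other cells. Both Fcna and Cd5l were higher again in the Alox15/Prg4 cells, at 448 to 542 CPM for Fcna and 1183 to 2129 CPM for Cd5l. Levels of these 2 markers in members thus lay between those of the other Csf1r-detected cells and those of the Alox15/Prg4 cells.

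Members are compared with the other Csf1r-detected cells in the libraries that held at least 50 members, the combination, anti-PD-L1 and PBS. Since the choice was made on the same cells, the folds are a description. A gene is counted as higher or lower when it differs by at least 1.5-fold on the log2 (CPM + 10) scale, among genes at 50 CPM or more in either set with at least 20 UMIs over both. By that measure 34 of 2856 genes were higher in members in all 3 libraries (1.19%) and 47 were lower in all 3 (1.65%). Serpinb6a, an intracellular protease inhibitor, was 2.55-, 2.96- and 2.53-fold higher in the combination, anti-PD-L1 and PBS. Fgfr1, a fibroblast growth factor receptor, was 4.00-, 3.62- and 2.51-fold higher. Fcgrt, the receptor that recycles antibody and albumin, was 3.32-, 2.60- and 2.08-fold higher. Ltc4s, which makes the lipid mediator leukotriene C4, was 2.67-, 2.04- and 2.03-fold higher. The other genes named by the rule as higher were Gprc5b, the fatty acid transporter Cd36, the lipase Lpl, Slamf9, the phospholipid transfer protein Pltp and Calml4.

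Several monocyte genes were low in members. Of the 13 measured genes of the monocyte list 7 were lower and 0 higher than in the other Csf1r-detected cells in each of the combination, anti-PD-L1 and PBS, with a median of -1.14, -1.49 and -1.39. The list still summed to 4302, 4431, 4478 and 3997 CPM in members of the combination, LNP-cGAMP, anti-PD-L1 and PBS, against 7450, 8498, 8828 and 6590 CPM in the other cells. Its most abundant gene in members was Plac8 in the treated libraries, at up to 1516 CPM. Ccr2 was at 14.8 CPM in combination members, 16.1 in LNP-cGAMP, 8.33 after anti-PD-L1 and 15.7 in PBS, against 316, 438, 375 and 321 CPM in the other Csf1r-detected cells. Chil3, a chitinase-like protein of monocytes and alveolar macrophages, was at 61.5, 89.1, 150 and 97.5 CPM in members, against 902, 1123, 1725 and 1002 CPM in the other cells. Mgp, a matrix protein that inhibits calcification, was 35.6-, 38.5- and 44.6-fold lower in members of the combination, anti-PD-L1 and PBS. The haemoglobin-binding plasma protein Hp was 10.7-, 13.8- and 10.2-fold lower in the same order. By library, 3.51%, 2.3% and 1.91% of all genes were higher in members and 5.05%, 2.7% and 2.57% were lower, in the combination, anti-PD-L1 and PBS. Of the measured genes of the MHC class II list, 4 of 7, 4 of 7 and 6 of 7 were lower in the same order, with a median log2 ratio of -0.70, -1.26 and -2.20.

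Markers of other lineages were low but not at 0. The summed T cell markers reached 9.84, 17.3, 2.04 and 1.64 CPM in members of the combination, LNP-cGAMP, anti-PD-L1 and PBS, and the summed neutrophil markers 347, 335, 327 and 266 CPM. LLC markers summed to 8.51, 0, 16.1 and 2.74 CPM and mesothelial markers to 1.78, 3.71, 0.0408 and 0.456 CPM. Red cell markers stood at 4.49 to 8.66 CPM in members of the 3 treated libraries and at 92.6 CPM in PBS members. Lyve1 is also a gene of lymphatic endothelium, so its markers were read in members. The 8 endothelial markers summed to 20.4, 45.8, 22.6 and 27.2 CPM. Nearly all of that was Pdpn, a membrane glycoprotein of lymphatic endothelium and some macrophages, at 18.3, 44.6, 20.5 and 24.6 CPM. The lymphatic factor Prox1 was at 0 in all 4 libraries and the endothelial adhesion molecule Pecam1 at 0.548 to 1.24 CPM. Their part in the results was not tested.

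**Figure D1:**
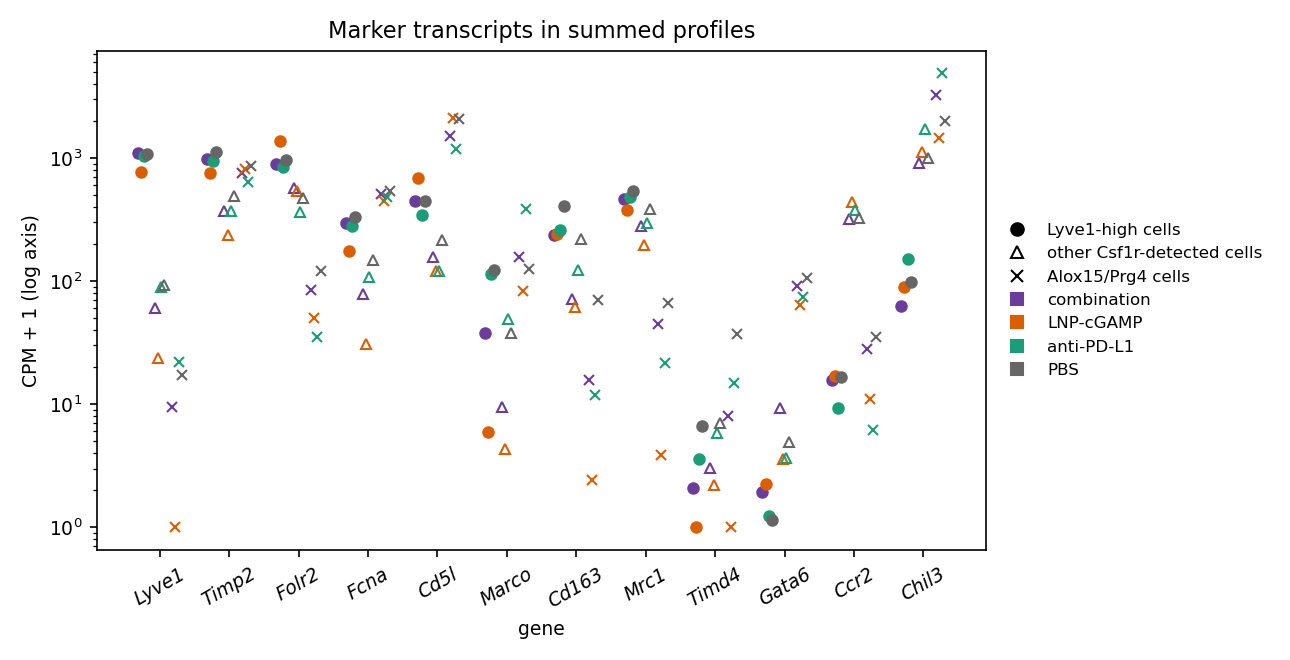
Levels of 12 marker transcripts in summed profiles, as CPM + 1 on a log axis, for Lyve1-high cells (filled circles), other Csf1r-detected cells (open triangles) and Alox15/Prg4 cells (crosses), with 1 colour per library. Folr2 and Mrc1 are highest in the Lyve1-high cells and Gata6 in the Alox15/Prg4 cells, while Marco spans 4.95 to 122 CPM over the Lyve1-high cells of the 4 libraries.

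The Lyve1 limit cut through a continuous range. Between 5 and 7.5 UMIs of Lyve1 per 10000, just inside the limit, there were 103 cells in the combination, 18 in LNP-cGAMP, 144 after anti-PD-L1 and 134 in PBS. Between 2.5 and 5, just outside it, there were 134, 41, 151 and 136 cells. Timp2 was close across the limit, at 878, 742, 837 and 965 CPM just inside and 899, 774, 760 and 885 CPM just outside. Marco was not close, at 3.47, 5.62, 111 and 166 CPM just inside and 34.3, 23.1, 58.4 and 44.6 CPM just outside. Ccr2 was at 26.5, 13.1, 9.6 and 25.6 CPM just inside, 29.0, 26.8, 40.8 and 29.0 CPM just outside, and 430 to 633 CPM in cells without any Lyve1 UMI. Members that passed with a single Lyve1 UMI numbered 2, 0, 1 and 4.

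Within the population, Marco, Cd5l and Fcna were spread unevenly over cells, Marco by far the most. The tenth of members with the most Marco, 39 cells of the combination, 3 of LNP-cGAMP, 48 of anti-PD-L1 and 44 of PBS, held 99.7%, 100%, 98.8% and 97.7% of its UMIs. Marco was detected in 41, 3, 82 and 93 members, so the LNP-cGAMP value could only be 100%. The top 10% of cells for Cd5l held 48.5%, 48.6%, 50.9% and 53.5% of its UMIs, and for Fcna 36.2%, 42.3%, 36.2% and 40.4%. For Timp2 the top 10% held 24.9%, 22.8%, 23.4% and 25.2%, and for Folr2 between 19.7% and 21.0%. Timp2 and Folr2, which the choice of cells did not use, were thus carried broadly, whereas Marco was a transcript of a few cells. Marco stood at 5 UMIs per 10000 or more in 7 of 383 members of the combination (1.83%), 0 of 29 in LNP-cGAMP, 15 of 475 in anti-PD-L1 (3.16%) and 19 of 439 in PBS (4.33%). Those Marco-high cells had Lyve1 at 1576, 1015 and 962 CPM and Timp2 at 854, 909 and 1033 CPM in the combination, anti-PD-L1 and PBS, and Gata6 at 0 in each. Their Apoe was at 549, 4344 and 4315 CPM, against 652, 1038 and 2581 CPM in members without a Marco UMI. Cd163 was at 184, 64.6 and 367 CPM, against 250, 260 and 382 CPM. Timd4 was at 0, 33.0 and 0 CPM, against 0.587, 1.41 and 0.885 CPM. Of the 15 Marco-high cells in anti-PD-L1, 12 were male-called and 0 female-called.

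Cd163 also varied widely between members, and Hmox1 and Slc48a1 varied with it, a pattern looked for after the values had been seen. Cd163 takes up haemoglobin bound to haptoglobin, Hmox1 breaks down haem and Slc48a1 carries haem out of the lysosome. Over members with at least 10000 UMIs, Cd163 stood at 2 UMIs per 10000 or more in 114 of 361 cells of the combination (31.6%, 26.8 to 36.6) and 8 of 27 of LNP-cGAMP (29.6%). It did so in 165 of 464 cells of anti-PD-L1 (35.6%, 31.2 to 40.1) and 203 of 419 of PBS (48.4%, 43.6 to 53.3). Few cells lay between 1 and 2 per 10000, namely 4, 2, 6 and 10, so the distribution had a gap there. The Cd163-high members had a median of 52251, 28673, 55269 and 51659 UMIs, against 46988, 28839, 50065 and 49716 UMIs in members below 1 per 10000.

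Hmox1 and Slc48a1 were higher in the Cd163-high members of each library large enough to compare. The log2 ratio of Cd163-high over Cd163-low members was 0.99 in the combination, 1.01 in anti-PD-L1 and 0.86 in PBS for Hmox1. For Slc48a1 it was 0.56, 0.56 and 0.60, of which only the PBS value passes 1.5-fold. Other genes of iron and haem handling differed little: in combination members with Cd163 at 5 per 10000 or more, against those without a Cd163 UMI, Blvrb was at 890 against 781 CPM, Fth1 at 11370 against 10554, Ftl1 at 19383 against 17092 and Slc40a1 at 6.99 against 6.29. By the same split Slc40a1 was at 3.83 against 3.74 CPM in anti-PD-L1. In PBS it differed, at 5.00 (3.57 to 6.80) against 1.04 CPM (0.283 to 2.66), both low levels. Blvrb was also higher by this split in anti-PD-L1, at 886 against 752 CPM, and in PBS, at 779 against 643. Fth1 and Ftl1 were higher there too, in PBS at 10532 against 9152 CPM and 16322 against 14259. Among the genes given, Hmox1 and, less, Slc48a1 thus differed in each of these libraries. Blvrb, Fth1 and Ftl1 differed by smaller ratios, and the rest of the list is not given. Hmox1 was among the 2 of 2701 genes that were at least 1.5-fold higher in all 3 libraries (0.074%), the other being Cd163 itself. Among genes lower in the Cd163-high members were Fn1 (fibronectin), at -0.84, -0.84 and -0.96, and the MHC class II chaperone Cd74, at -0.52, -0.89 and -0.99. The 2 genes at least 1.5-fold lower in all 3 (0.074%) were Fn1 and AA467197. Over single members, the correlation of log-scaled Cd163 with Hmox1 was 0.4997 (n = 361), 0.533 (n = 464) and 0.467 (n = 419), and with the log UMI total it was 0.0959, 0.110 and 0.0128. These cells share a library, and the values are a description.

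**Figure D2:**
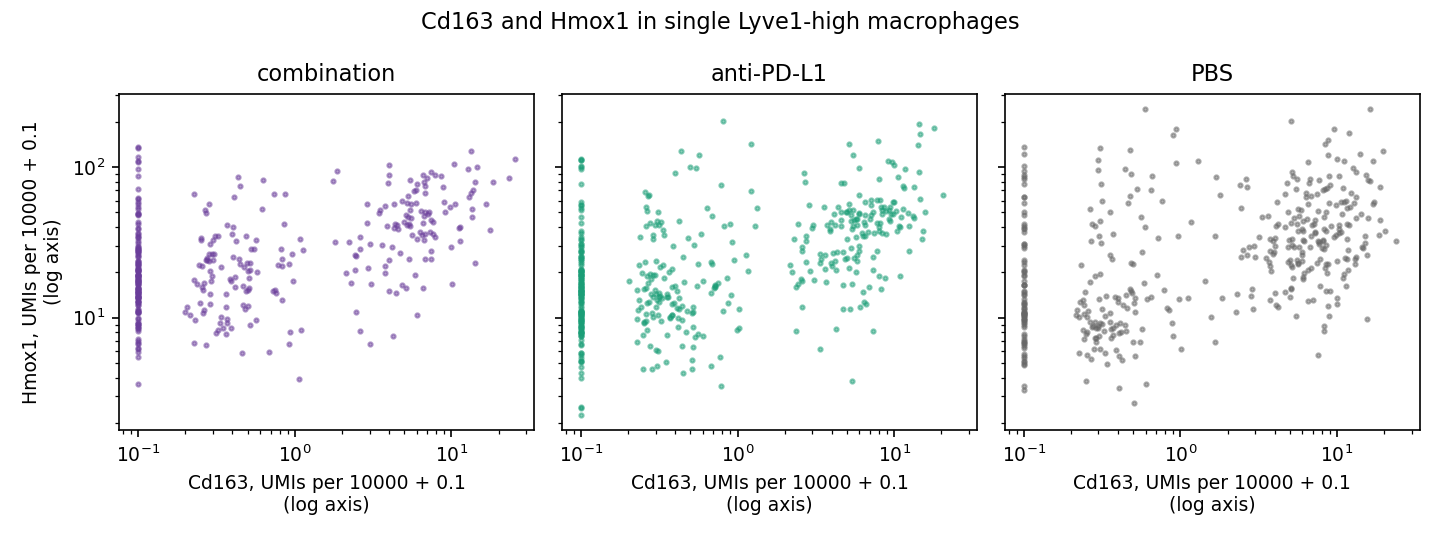
Cd163 (x axis) against Hmox1 (y axis) in single Lyve1-high macrophages with at least 10000 UMIs, as UMIs per 10000 with a small offset on log axes, for the combination (361 cells), anti-PD-L1 (464) and PBS (419). Cells at the left edge have no Cd163 UMI, few cells lie between 1 and 2 per 10000, and the cells to the right of that gap lie higher on the Hmox1 axis on the whole.

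Lyve1-high macrophages were scarcest after LNP-cGAMP alone. They were 383 of 3548 kept cells in the combination (10.8%, 9.79 to 11.9), 29 of 3830 in LNP-cGAMP (0.757%, 0.508 to 1.09), 475 of 3379 in anti-PD-L1 (14.1%, 12.9 to 15.3) and 439 of 2821 in PBS (15.6%, 14.2 to 17.0). Among Csf1r-detected cells they were 14.6% of 2626 in the combination (13.3 to 16.0), 1.26% of 2310 in LNP-cGAMP (0.842 to 1.80), 21.2% of 2241 in anti-PD-L1 (19.5 to 22.9) and 24.1% of 1824 in PBS (22.1 to 26.1). The LNP-cGAMP interval lies far below the other 3, and the anti-PD-L1 and PBS intervals overlap. In the near-empty droplets, which hold RNA free in the suspension, Lyve1 was at 257 CPM in the combination, 35.2 in LNP-cGAMP, 315 after anti-PD-L1 and 277 in PBS. Fewer cells of this kind and the same cells with Lyve1 below the limit cannot be told apart from such shares. With a Lyve1 limit of 2.5 per 10000 in place of 5, the shares of Csf1r-detected cells were 19.7%, 3.03%, 27.9% and 31.5%.

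In the combination the share depended on the call. Of female-called Csf1r-detected cells 20.7% were members (18.7 to 22.8, of 1520), against 7.27% of male-called ones (5.06 to 10.1, of 454). In anti-PD-L1 the shares were 23.8% of female-called (21.6 to 26.2, of 1321) and 20.2% of male-called cells (17.1 to 23.5, of 629). Male-called cells of LNP-cGAMP were at 1.36% (0.897 to 1.97, of 1987) and those of PBS at 25.5% (23.4 to 27.8, of 1551). Among male-called cells the share was thus lowest in LNP-cGAMP, next in the combination, and highest in anti-PD-L1 and PBS, whose intervals touch. Among female-called cells, which only the combination and anti-PD-L1 held in number, the intervals overlap. Restricted to cells with at least 10000 UMIs, the shares were 21.2% and 6.53% of female-called and male-called cells in the combination, 1.40% of male-called cells in LNP-cGAMP, 24.6% and 21.1% in anti-PD-L1 and 26.6% in PBS.

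**Figure D3:**
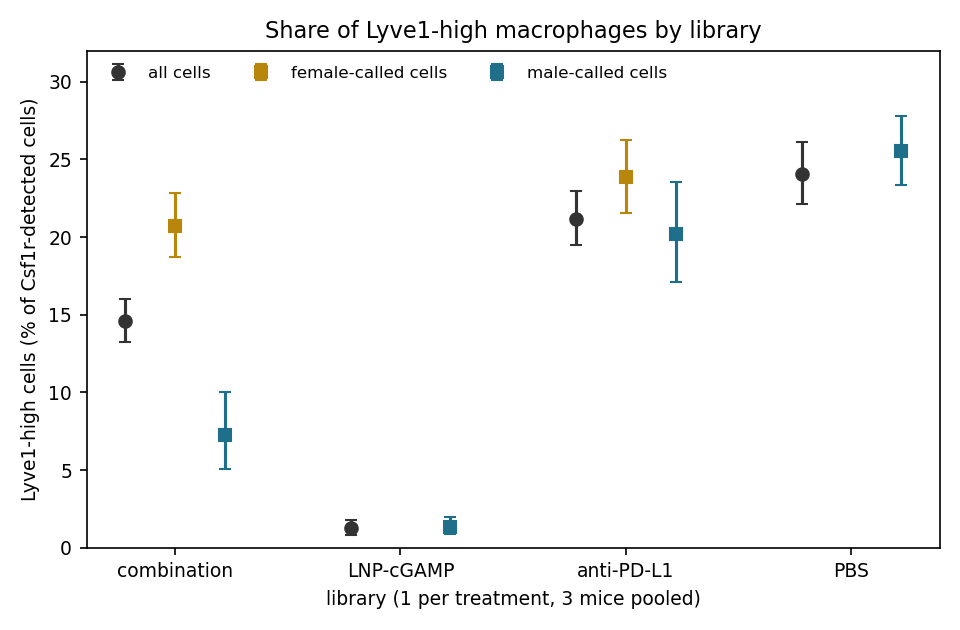
Share of Csf1r-detected cells that were Lyve1-high (y axis, percent) in each library (x axis), for all cells (circles), female-called cells and male-called cells (squares). Bars are exact 95% binomial intervals and cover counting error only. Male-called cells of the combination stand at 7.27%, against 20.7% of its female-called cells.

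The 29 members left after LNP-cGAMP are fewer than 50, and their values rest on 807994 UMIs, against 21910380 UMIs in the PBS members. Their profile was high in Saa3, Ccl5 and interferon response genes. Set against PBS members, they had 542 of 3242 genes higher by 1.5-fold or more (16.7%) and 430 lower (13.3%). Saa3, an acute-phase apolipoprotein made by macrophages, was at 10787 CPM in LNP-cGAMP members and 310 in PBS members, a 34.8-fold difference (33.7 to 35.9). Ccl5, a chemokine that draws T cells and monocytes, was at 1623 CPM against 2.92 in PBS, a 555-fold difference (432 to 726). Ly6c2, an interferon-inducible surface protein of monocytes, was at 452 CPM against 24.97 in PBS, an 18.1-fold difference (15.8 to 20.7). These 3 transcripts were also abundant in the near-empty droplets of the LNP-cGAMP library, where Saa3 was at 5457 CPM, Ccl5 at 1543 and Ly6c2 at 751, against 1046, 380 and 226 CPM in those of PBS. The part of free RNA in the member values was not tested. Other genes higher in LNP-cGAMP members were the protease inhibitor Slpi (366 CPM against 20.8), the melanocortin receptor accessory protein Mrap (182 against 9.36), the heat-shock protein Hspb1 (296 against 27.2) and the matrix protein Spp1 (905 against 104).

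The type I interferon list was higher as a whole in LNP-cGAMP members. Of its 35 measured genes 26 exceeded PBS by at least 1.5-fold and 0 were lower by as much. Over all genes tested 16.7% were higher and 13.3% lower. The median log2 ratio was 0.96, against 0.04 over all genes tested. Of the list's 45 genes, 35 reached 50 CPM in LNP-cGAMP members and 26 in PBS members. Some were thus measured only where they were higher, which raises the count and the median. Summed over all 45 genes, the list stood at 19241.5 CPM against 11975.4 in PBS. Irf7, a regulator through which interferon production feeds on itself, stood at 1038 CPM against 228 in PBS (4.56-fold). The ubiquitin-like protein Isg15 was at 464 CPM against 126 (3.70-fold), and the RNA-binding protein Ifit1 at 135 against 32.6 (4.14-fold). In the other Csf1r-detected cells, where 10.6% of all genes were higher and 6.73% lower, 34 of 39 genes of the list were higher, with a median of 0.93. The same filter limit holds there, with 39 genes at 50 CPM in LNP-cGAMP and 26 in PBS. Members and other cells stood close on this list, and their difference was not tested. Of the 19 measured MHC class I genes 9 were higher and 2 were lower in members, and H2-Q6, a non-classical class I molecule, was at 126 CPM against 5.20. The stress list had 6 of 12 genes higher and 1 lower, with a median of 0.63, and the macrophage transcription factor list 7 of 14 higher and 0 lower, with a median of 0.57. The MHC class I, stress and transcription factor counts stand beside the same shares over all genes. They carry the same limit, as 19, 12 and 14 genes reached 50 CPM in LNP-cGAMP members and 15, 10 and 11 in PBS members.

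Proliferation genes and mitochondrially encoded genes were lower in LNP-cGAMP members, as were several single genes of other kinds. The matrix list as a whole was mixed, with 3 of 9 measured genes higher, 2 lower and a median of -0.26. Of its genes, Fn1 was at 9.90 CPM against 242 in PBS, 24.5-fold lower (12.4 to 56.7). The eosinophil chemokine Ccl24 was at 6.19 CPM against 156, 25.1-fold lower (10.8 to 77.5). Ptgs1, the first enzyme of prostaglandin synthesis, was at 11.1 CPM against 119, and Alox5, the first enzyme of leukotriene synthesis, at 7.43 against 86.4. Lysozyme Lyz2 was at 1375 CPM against 8437 (6.14-fold lower). All 8 measured proliferation genes were lower, with a median of -1.32, beside 13.3% lower over all genes. Of the list's 24 genes, 8 reached 50 CPM in PBS members and 4 in LNP-cGAMP members. Genes that reached it only in PBS were lower by that choice, so the count is partly set by the filter. Over all 24 genes the list summed to 890 CPM, against 2558 in PBS. Stmn1, a tubulin-binding protein of dividing cells, was 10.6-fold lower. Of the 10 measured mitochondrially encoded genes 8 were lower, with a median of -1.72, and mt-Co3, a subunit of cytochrome oxidase, was at 2150 CPM against 7034. The median member had 1.45% of its UMIs from such genes in LNP-cGAMP and 3.31% in PBS. The other Csf1r-detected cells showed that too, with 10 of 11 mitochondrially encoded genes lower and a median of -1.65.

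The identity transcripts did not move together in LNP-cGAMP members. Of the 12 measured genes of the resident macrophage list 2 were higher and 4 lower than in PBS, with a median of -0.48. Over all genes of this comparison, 16.7% were higher and 13.3% lower, so the count of higher genes lies near that share. Marco was at 4.95 CPM against 122 (24.6-fold lower, 9.59 to 90.3), on 4 UMIs in LNP-cGAMP. That interval counts UMIs, most of which lay in few cells. Marco-high members were 0 of 29 in LNP-cGAMP, which allows up to 11.9%, and 19 of 439 in PBS (4.33%, 2.63 to 6.68). These shares overlap, so by cells a fall is not shown. Fcna was 1.87-fold and Cd163 1.68-fold lower, whereas Cd5l was 1.55-fold higher, and Folr2 was at 1365 CPM against 970. The iron exporter Slc40a1 was at 58.2 CPM against 4.56 (12.7-fold higher), and Slc48a1 at 349 against 242. The iron and haem list had 3 of 11 genes higher and 1 lower, with a median of 0.50, beside the same 16.7% and 13.3% over all genes. No member of either library was female-called, and among male-called members alone the counts were 543 of 3240 genes higher (16.8%) and 417 lower (12.9%).

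After anti-PD-L1 the members differed from PBS members in few genes. Only 50 of 2931 genes were higher by 1.5-fold or more (1.71%), and 21 were lower (0.716%). Ly6c2 was at 150 CPM in anti-PD-L1 members and 24.97 in PBS members (6.00-fold, 5.48 to 6.57), with 329 and 226 CPM in the near-empty droplets of the same libraries. AW112010, an interferon-gamma-inducible transcript of immune cells, was at 1585 CPM against 341 (4.65-fold), and the intracellular serpin Serpina3g at 58.0 against 7.44 (7.80-fold). The guanylate-binding protein Gbp2b was at 327 CPM against 127 (2.58-fold), the interferon-induced chemokine Cxcl10 at 86.2 against 29.3 (2.94-fold), and the cytokine signalling inhibitor Socs1 at 126 against 47.8 (2.62-fold). Genes of MHC class II presentation stood higher as a list, 6 of 7 measured genes at least 1.5-fold, with a median of 0.80 against -0.00 over all genes. Cd74 was at 1354 CPM against 671 (2.02-fold) and H2-Aa, a class II chain, at 384 against 200 (1.92-fold). The interferon-gamma list had 5 of 16 genes higher and 0 lower, with a median of 0.34, and the type I list 3 of 29 higher and 0 lower, with a median of 0.23.

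Among the lower genes in anti-PD-L1 members were Apoe, a lipid-carrying apolipoprotein, at 1143 CPM against 2596 in PBS (2.27-fold lower) and Fn1, at 110 against 242 (2.21-fold lower). The glutathione transferase Gstp1 was at 90.6 CPM against 212. The Apoe difference turned on the call. Female-called anti-PD-L1 members had Apoe at 596 CPM and male-called ones at 2605 CPM, against 2577 CPM in male-called PBS members, so among male-called members the 2 libraries were level. In the combination, female-called members had Apoe at 538 CPM and male-called ones at 1916 CPM. The other Csf1r-detected cells of anti-PD-L1 showed the same order, with 889 CPM in female-called and 2625 CPM in male-called cells.

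Marco also followed the call within anti-PD-L1. It was at 7.38 CPM in the 315 female-called members and at 304 CPM in the 127 male-called members, 41.2-fold lower in the female-called ones. Marco-high members were 0 of 315 female-called cells, which allows up to 1.16%, and 12 of 127 male-called cells (9.45%, 4.98 to 15.9). In PBS they were 18 of 396 male-called members (4.55%), and in the combination 6 of 315 female-called and 0 of 33 male-called ones. In the combination the intervals of the calls overlap (0.702 to 4.10 and 0 to 10.6), so no order of the calls is shown there. Fcgrt was at 373 CPM in female-called and 159 in male-called anti-PD-L1 members (2.35-fold higher), and the carbonyl reductase Cbr2 at 596 and 325 (1.83-fold higher). In all, 26 of 2978 genes were higher in the female-called anti-PD-L1 members (0.873%) and 36 were lower (1.21%).

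In the combination, members of both calls pooled were higher than PBS members in Saa3, Ccl5, Ly6c2 and MHC class II genes and lower in Apoe and monocyte-recruiting chemokines. Of 2957 genes, 74 were higher by 1.5-fold or more (2.5%) and 36 lower (1.22%). Saa3 was at 1801 CPM in combination members and 310 in PBS members (5.81-fold), Ccl5 at 62.9 against 2.92 (21.5-fold) and Ly6c2 at 267 against 24.97 (10.7-fold). In the near-empty droplets these transcripts were at 3592, 491 and 496 CPM in the combination, against 1046, 380 and 226 CPM in PBS, above the member levels, and the part of free RNA was not tested. AW112010 was at 2009 CPM against 341 (5.89-fold), Gbp2b at 377 against 127 (2.98-fold), and the metal-binding protein Mt2 at 293 against 102 (2.88-fold). MHC class II genes were higher in 4 of 7, with a median of 0.65, but among male-called members alone the median was -1.18. Gbp2b was likewise lower among male-called members, with a log2 ratio of -2.47. Of the lower genes, Apoe was at 624 CPM against 2596 (4.16-fold lower), the monocyte chemokine Ccl2 at 273 against 910 (3.34-fold lower) and its relative Ccl7 at 278 against 838 (3.02-fold lower). The called PBS members were all male-called, and among male-called members Apoe and Ccl2 had log2 ratios of -0.43 and -0.499, both under 1.5-fold, whereas Ccl7 was at -1.44. The myeloid-recruiting chemokine list had 4 of 8 genes lower and 0 higher, with a median of -0.76 against -0.02 over all genes, and a median of -0.40 among male-called members. All the treatments were set against the same PBS library, so these differences are not independent of those given for the single agents.

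**Figure D4:**
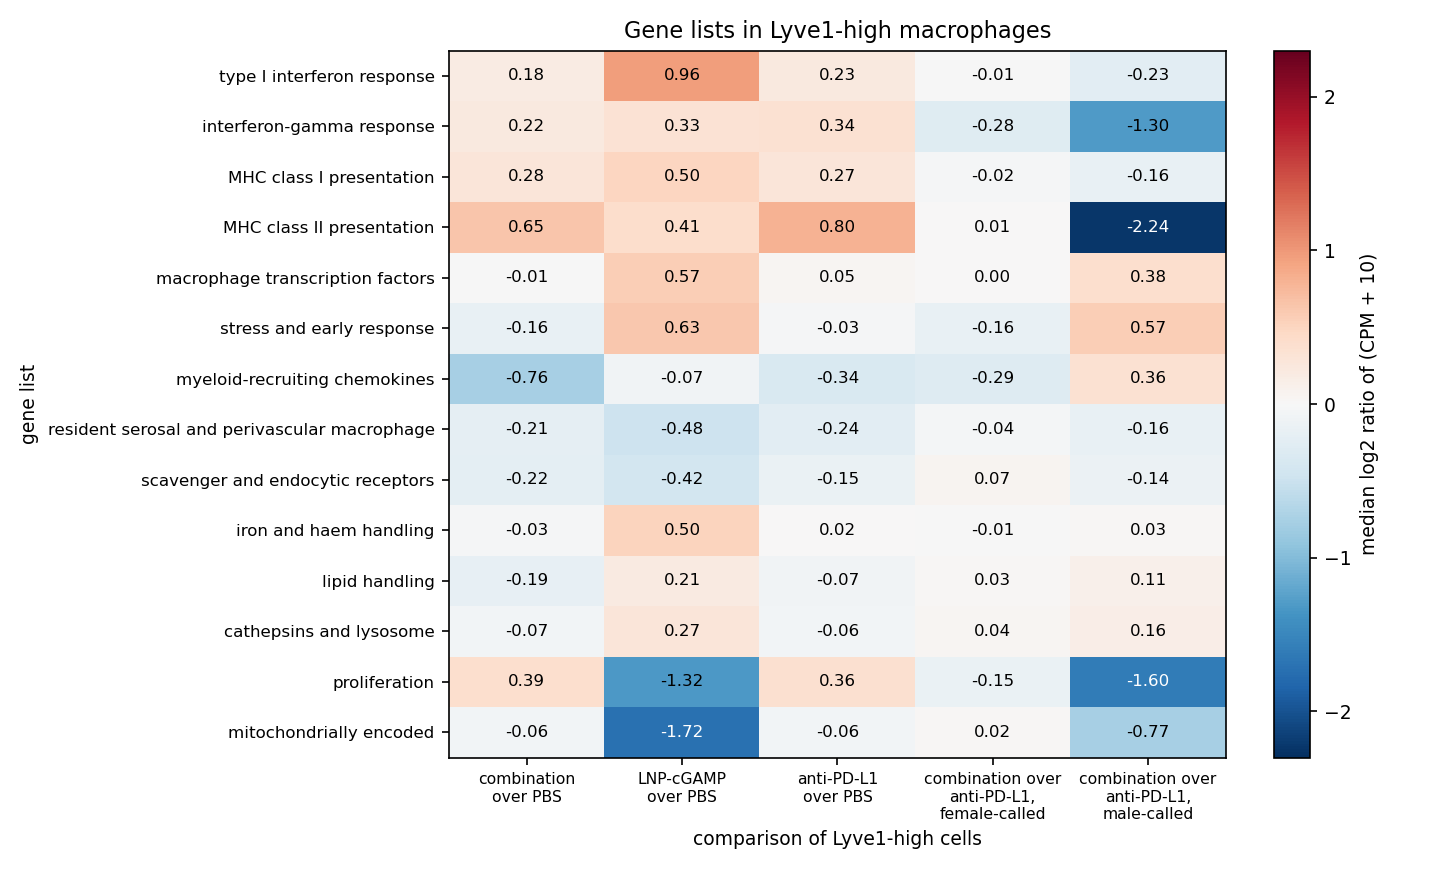
Median log2 ratio of (CPM + 10) over the measured genes of 14 lists (rows), in Lyve1-high cells, for each treatment over PBS and for the combination over anti-PD-L1 among female-called and among male-called cells (columns). Red is higher and blue is lower in the library named first. The type I interferon median is 0.96 for LNP-cGAMP over PBS, and the MHC class II median for the combination over anti-PD-L1 is 0.01 among female-called and -2.24 among male-called cells.

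Against anti-PD-L1 alone, members of the combination differed in 23 of 2935 genes that were higher (0.784%) and 13 that were lower (0.443%). Ccl5 was 15.6-fold higher, at 62.9 CPM against 4.04, and Saa3 2.91-fold higher, at 1801 against 619. All 4 of these member levels lie below those of the near-empty droplets of the same library, so the part of free RNA cannot be told apart. The interferon-induced Cxcl10 was 3.62-fold lower and Ccl2 1.96-fold lower, although Ccl2 was higher among male-called members, with a log2 ratio of 0.36. With the Lyve1 limit at 2.5 per 10000, the log2 ratio of Cxcl10 was -0.47 in place of -1.51, under 1.5-fold. Marco was 3.07-fold lower in all. It was at 29.9 CPM against 7.38 among female-called members and at 4.68 against 304 among male-called ones. Few cells carried these values: Marco-high members of the combination were 6 of 315 female-called and 0 of 33 male-called ones. The latter allows up to 10.6%, against 9.45% of male-called members in anti-PD-L1, so opposite changes in the calls are not shown by cells. The type I interferon list was level, with 1 of 29 genes higher, 0 lower and a median of -0.04. Against LNP-cGAMP alone, 340 of 3203 genes were higher (10.6%) and 449 were lower (14%). There the combination members had lower Ccl5 (25.8-fold), Spp1 (8.01-fold) and Saa3 (5.99-fold), and higher Stmn1 (17.6-fold) and Ptgs1 (12.9-fold). The called LNP-cGAMP members were all male-called, and among male-called members alone most of these differences were smaller or gone. Saa3 was then higher in the combination, with a log2 ratio of 0.87, Stmn1 was at 0.36 and Spp1 at -0.43, both under 1.5-fold, while Ccl5 remained lower at -1.65. Ptgs1, at 23.4 CPM in the combination and 11.8 in LNP-cGAMP, was then under the level needed to be counted. Of the type I interferon genes 22 of 35 were lower than in LNP-cGAMP and 0 higher, with a median of -0.76, while 11 of 12 proliferation genes were higher, with a median of 1.51. Both counts are partly set by the 50 CPM filter. It was reached by 12 proliferation genes in combination members and 4 in LNP-cGAMP members, and by 27 and 35 type I interferon genes. Among male-called members the interferon median was -0.94, and 0 of the 5 proliferation genes then measured differed by 1.5-fold, with a median of 0.25. Over all genes of that male-called comparison, 119 of 3135 were higher and 316 lower, and 5 genes are too few to set against that.

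Split by call, the combination library held members of very unlike profiles. Among female-called members, 16 of 2930 genes were higher than in anti-PD-L1 (0.546%) and 14 were lower (0.478%). Among male-called members, 33 cells in the combination and 127 in anti-PD-L1, 311 of 3182 genes were higher (9.77%) and 415 were lower (13%). Saa3 was at 654 CPM in female-called combination members and 595 in female-called anti-PD-L1 members (1.10-fold, 1.07 to 1.13). In male-called members it was at 19962 CPM in the combination and 739 in anti-PD-L1 (27.0-fold, 26.1 to 27.9). Ccl5 was at 27.2 CPM against 4.23 in female-called members (6.45-fold), and at 521 against 3.25 in male-called members (160-fold, 103 to 265). The near-empty droplets held Saa3 at 3592 CPM and Ccl5 at 491 CPM in the combination, against 1031 and 220 CPM in anti-PD-L1. These levels exceed those of the female-called members, in which free RNA and RNA of the cells cannot be told apart. The pooled 2.91-fold difference of Saa3 thus lay between those of the calls, and the male-called members gave 854481 of the 17384873 UMIs of combination members.

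The share of members high in Saa3 repeated that split. Saa3 stood at 50 UMIs per 10000 or more in 12 of 315 female-called members of the combination (3.81%, 1.98 to 6.56) and 27 of 33 male-called ones (81.8%, 64.5 to 93.0). In LNP-cGAMP it did so in 17 of 29 members (58.6%, 38.9 to 76.5). In anti-PD-L1 it did so in 12 of 475 members (2.53%) and in PBS in 3 of 439 (0.683%). The other Csf1r-detected cells of the combination were split alike, with 8.29% of female-called and 70.3% of male-called cells past the limit. After thinning to 5000 UMIs per cell, 74.0% of combination members had a Saa3 UMI, 92.9% in LNP-cGAMP, 49.7% after anti-PD-L1 and 34.0% in PBS. T cells, which should lack Saa3, had one in 53.6%, 62.3%, 9.68% and 0% in the same order, so a UMI of Saa3 was also found in cells that do not make it.

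**Figure D5:**
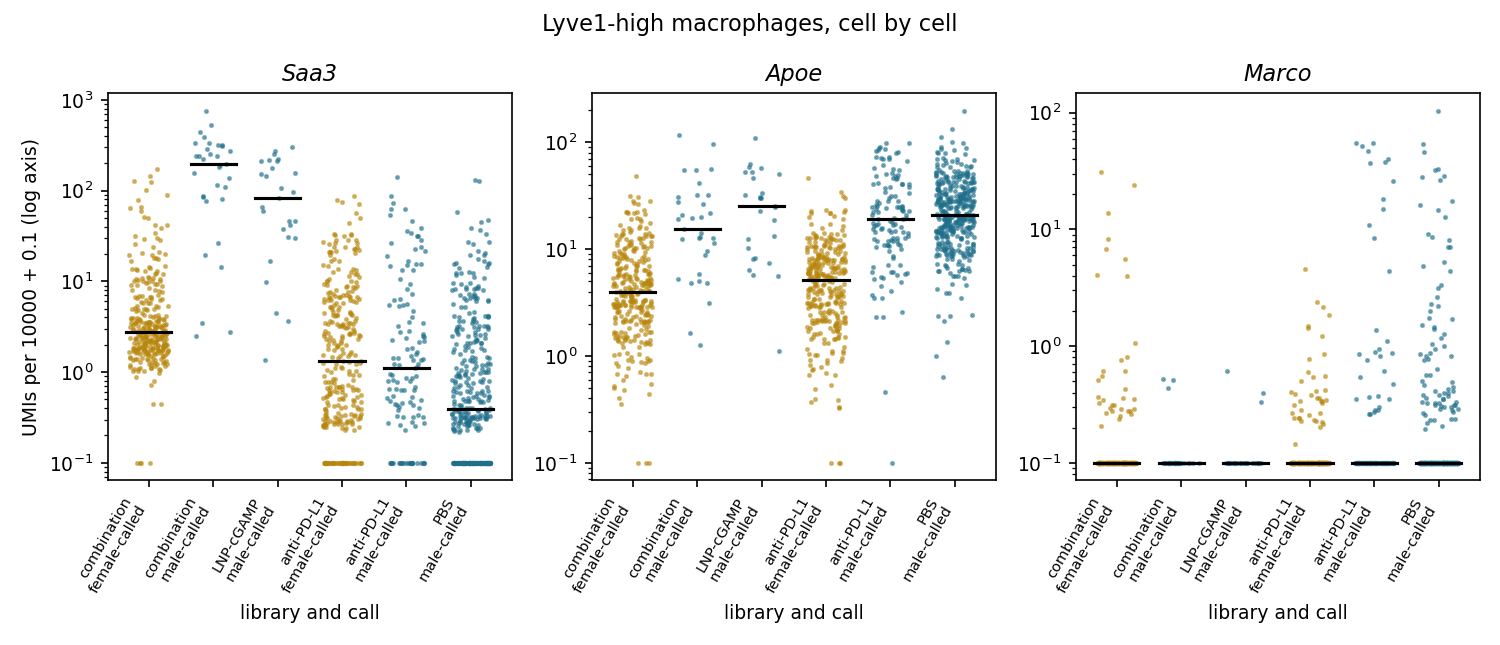
Saa3, Apoe and Marco in single Lyve1-high macrophages (y axis, UMIs per 10000 with a small offset, log axis) by library and call (x axis); each point is a cell and the bar is the median. The Saa3 median is 2.69 and 197 per 10000 in female-called and male-called cells of the combination, 83.2 in LNP-cGAMP, 1.23 and 0.999 in anti-PD-L1 and 0.289 in PBS. The Apoe median is 3.86 and 5.07 in female-called cells of the combination and of anti-PD-L1, against 15.3 to 25.2 in the male-called sets.

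Interferon-gamma-linked and antigen-presentation genes were split in the other direction. Gbp2b was at 401 CPM in female-called combination members and 317 in female-called anti-PD-L1 members (1.26-fold), and at 15.2 against 351 in male-called members (23.1-fold lower in the combination). Cd74 was at 1173 CPM against 1217 in female-called members and at 268 against 1721 in male-called members (6.42-fold lower). H2-Aa was at 346 CPM against 333 in female-called members and at 83.1 against 520 in male-called members (6.26-fold lower). As lists, MHC class II had 0 of 7 genes past 1.5-fold in female-called members, with a median of 0.01, and 6 of 7 lower in male-called members, with a median of -2.24. The interferon-gamma list had 2 of 16 lower in female-called members (median -0.28) and 15 of 16 lower in male-called ones (median -1.30). Proliferation genes followed, with 0 of 15 past 1.5-fold in female-called members (median -0.15) and 7 of 9 lower in male-called ones (median -1.60). The type I interferon list stayed level in female-called members, with 0 of 28 genes past 1.5-fold (median -0.01), and had 3 of 29 higher and 9 lower in male-called ones (median -0.23). Over all genes, 9.77% were higher and 13% lower in male-called members, so the count of higher interferon genes lies near that share. In female-called members the shares over all genes were 0.546% and 0.478%.

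Within the combination library itself, female-called members were higher than male-called members in 343 of 3113 genes (11%) and lower in 300 (9.64%), against 0.873% and 1.21% within anti-PD-L1. The female-called members also had more UMIs, with a median of 49764, against 27472 in the 33 male-called ones. In anti-PD-L1 the medians were 52484 and 49580 UMIs in female-called and male-called members. The number of mice behind either call is not given, so a difference of sex and a difference between single mice cannot be told apart. The part of depth in these counts was not tested.

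STING itself was measured in members under its older symbol Tmem173, at 71.8 CPM in the combination, 94.1 in LNP-cGAMP, 80.2 after anti-PD-L1 and 62.7 in PBS. Cd274, which encodes PD-L1, was at 156, 220, 211 and 135 CPM in the same order. Both were present in members of every library, and both were lowest in PBS members. Arg1, an arginine-degrading enzyme of tumour-associated macrophages, was at 5191, 4470, 5286 and 5654 CPM in members, against 2547, 1593, 3474 and 3838 CPM in the other Csf1r-detected cells. The complement component C1qa was at 4568, 5421, 4140 and 4589 CPM in members, and Pf4, a platelet-factor chemokine also made by resident macrophages, at 3801, 3788, 3897 and 5057 CPM. In members each of these 3 transcripts differed by less than 1.5-fold between any 2 libraries.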

How the data were processed

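Single-cell RNA of pleural fluid cells was measured in 4 libraries, 1 per treatment. The deposited matrices hold UMI counts per gene and barcode, unnormalized, made by the authors in Cell Ranger, whose version is 3.0.2 in the file headers, on mm10 per the submitters' processing notes. The labels name 2 versions of the reagent kit, which was not settled here. Near-empty barcodes (10 to 100 UMIs) were summed as free RNA.

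Members were selected as described above, with no clustering. Counts were summed per library and cell set, divided by the set's total and given as CPM. Folds are ratios of CPM, and log2 ratios use a pseudocount of 10 CPM. Genes were measured when at 50 CPM or more in either set. A list's count can therefore lean towards the set where its genes are high. Intervals are exact 95% Poisson (ratios: conditional binomial) or Clopper-Pearson intervals, and cover counting error only. The limit for a count of 0 is the upper bound of that interval. With 1 library per treatment no test was run and no p-value is given. Calculations used Python 3.11.15, NumPy 2.4.6, SciPy 1.17.1 and pandas 2.3.3, and the ratio step was tested on simulated data. No doublet caller was run; leaving out cells with 2 or more UMIs of another lineage's markers was an alternative.

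The members and the 27 gene lists were chosen with earlier results of these data known. Named genes are the markers, genes of the lists, and the genes of highest and lowest log2 ratio: 15 and 10 for members against other cells, 10 and 8 for a treatment against PBS, and 5 and 5 for the combination against each agent. Ribosomal, haemoglobin, immunoglobulin, sex-linked and mitochondrial genes were left out of those ranks. Genes named outside this rule (AA467197, Fcgrt and Cbr2 by call, and the Cd163 comparison) were chosen after their values were seen. A gene that this rule picks is not reported here.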

Additional observations from a re-analysis of the deposited data

Results flagged for a closer look

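An agent can be read in a pair of comparisons that share no library: LNP-cGAMP against PBS beside the combination against anti-PD-L1, and anti-PD-L1 against PBS beside the combination against LNP-cGAMP. Each gene below differed in opposite directions over such a pair by at least 1.5-fold, and none of these differences was tested. Hist1h2ap, a histone gene of dividing cells, had a log2 ratio of 1.87 in the combination against anti-PD-L1 and -1.45 in LNP-cGAMP against PBS. The remaining genes concern anti-PD-L1. For Hist1h2ap the log2 ratio was 2.43 in the combination against LNP-cGAMP and -0.89 in anti-PD-L1 against PBS. For Fn1 it was 1.84 and -1.07, and for Gstp1 0.88 and -1.14, in the same order. For the MHC class I gene H2-Q7 it was -1.18 in the combination against LNP-cGAMP and 1.04 in anti-PD-L1 against PBS, for Ly6c2 -0.74 and 2.19, and for Saa3 -2.58 and 0.98. Each pair rests on the 29 LNP-cGAMP members. Among male-called members alone, Fn1 still differed in opposite directions by at least 1.5-fold (2.74 and -0.66), and the other genes did not: H2-Q7, for example, was at -0.42 in the combination against LNP-cGAMP and 0.36 in anti-PD-L1 against PBS.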

How the results depend on the processing

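No paired analysis was possible because each treatment is 1 library and its number is an accession order. Values below are for the combination, LNP-cGAMP, anti-PD-L1 and PBS in that order, and the cause of a change was not tested unless the setting itself fixes it. With Lyve1 at 2.5 per 10000 or more, members were 14.6%, 1.83%, 18.5% and 20.4% of kept cells and 19.7%, 3.03%, 27.9% and 31.5% of Csf1r-detected cells. At 10 they were 5.27%, 0.0783%, 6.81% and 7.66%, and 7.12%, 0.130%, 10.3% and 11.8%. A minimum of 5000 UMIs gave 13.8% of kept cells in the combination, 20.02% in anti-PD-L1 and 23.3% in PBS. The rule applied to cells thinned to 5000 UMIs gave 8.80% in the combination. Without cells bearing other-lineage markers the shares of kept cells were 14.5%, 1.38%, 21.4% and 22.6%, and of Csf1r-detected cells 16.3% in the combination and 23.8% in anti-PD-L1. Male-called members were 6.67%, 16.8% and 21.1% of male-called kept cells in the combination, anti-PD-L1 and PBS, and 7.27% of Csf1r-detected ones in the combination. Female-called members, an alternative chosen after seeing the data, were 17.4% and 19.5% of kept and 20.7% and 23.8% of Csf1r-detected cells in the combination and anti-PD-L1. The order of the libraries was the same under each of these limits.

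The counts of genes past 1.5-fold were 972 for LNP-cGAMP against PBS, 71 for anti-PD-L1 against PBS, 110 for the combination against PBS, 789 against LNP-cGAMP and 36 against anti-PD-L1. Genes from 10 CPM up gave 1772, 114, 197 and 1492 for the first 4. Male-called members gave 748, 435 and 726 for the combination against PBS, LNP-cGAMP and anti-PD-L1, and the lower Lyve1 limit gave 477 against LNP-cGAMP. Scaling by TMM moved no count past 1.5 times. Values that turned sign did so among male-called members, except where another setting is named. Against PBS, the combination had medians of -1.18 for MHC class II (0.65 over all members) and 0.50 for T cell-recruiting chemokines (-0.98 over all; 0.022 at the lower Lyve1 limit), and Gbp2b at -2.47. Against LNP-cGAMP it had 0.11 for myeloid chemokines (-1.12 over all), -0.032 for Ube2c and 0.87 for Saa3. Against anti-PD-L1 it had -0.12 for Hist1h2ap, 0.36 for Ccl2 and, among female-called members, 1.20 for Marco. In anti-PD-L1 against PBS, Apoe was at 0.0158. At the Lyve1 limit of 10 and in thinned cells LNP-cGAMP had too few members, and its comparisons were not run.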
